A study of Mus musculus with 5 samples.

Results

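The ERBB and MET receptor tyrosine kinases and their ligands were described here through 10 genes: the receptors Egfr, Erbb2, Erbb3 and Met, the EGFR ligands Tgfa, Hbegf, Ereg, Areg and Egf, and the MET ligand Hgf. Their rows were found by gene symbol in a table of 55397 mouse genes, and all 10 were among the 17105 genes that passed a minimum mean of 10 normalised counts. The table holds bulk RNA-seq of liver tumour nodules from female C57BL/6N mice that received plasmids by hydrodynamic tail vein injection at 8 weeks of age. Every mouse received 4 µg of CMV-driven Sleeping Beauty transposase and 10 µg each of pT3-EF1a-AKT and pT3-EF1a-NICD-IRES-rtTA, so both groups carried Akt and the Notch intracellular domain (NICD) from the EF1a promoter. As a further 10 µg plasmid, the 3 libraries of the Prox1 OE group came from mice given pT3-Tre-FLAG-mmProx1-IRES-GFP, and the 2 libraries of the Control group from mice given pT3-Tre-IRES-GFP. A 6.25% doxycycline diet from day 21 switched on the Tre promoter in both groups, so that Prox1 was induced between weeks 3 and 4. Tumours were taken either after the week of induction or at the humane endpoint, and the labels do not say which applied to which library or whether each library came from a separate mouse. The p-values below therefore measure only the spread between these libraries.

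ERBB receptors are kinases that pair at the cell surface when EGF-like ligands bind, and ERBB2, which has no known ligand of its own, is the favoured partner of the others, while ERBB3 has little kinase activity and signals through its partners. MET is the receptor for hepatocyte growth factor (HGF), which mesenchymal cells such as stellate cells release as an inactive precursor. Both receptor families signal through adaptors to RAS, RAF, MEK and ERK, and both are known for driving hepatocyte growth in liver regeneration.

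The libraries held 48740863 to 56629477 reads, and 1 read was worth 0.822 to 1.18 normalised counts. Prox1 counted 4153 and 4664 in the Control libraries and 48090, 11113 and 8231 in the Prox1 OE libraries, with no overlap. These counts do not separate the transgene from the endogenous gene. The fitted log2 difference was 1.90 (SE 0.66, limma adjusted p = 0.061), and without Prox1 OE replicate 1, whose Prox1 count was far above the others, it was 1.12 (limma adjusted p = 0.0056). The nodules are labelled as transformed hepatocytes. Hepatocyte markers and bile duct cell (cholangiocyte) markers were both detected in every library. The summed level of 10 hepatocyte markers was higher in Prox1 OE (2554373 to 3984190 normalised counts) than in Control (749872 to 1215283), while that of 10 cholangiocyte markers was lower (523634 to 707604 against 758598 to 827559). Most of the cholangiocyte sum was Spp1, and the other 9 markers summed to 14316 to 18779 in Prox1 OE and 42810 to 46588 in Control.

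Of the 10 receptor and ligand genes, Erbb2 and Ereg fell in Prox1 OE, none rose, and 8 did not pass the test (limma, Benjamini-Hochberg adjusted p under 0.05). That is 20.0% called, while 33.3% of all genes tested were called, 16.2% lower and 17.1% higher. At an unadjusted p under 0.05 no gene of the 10 was higher and 4 were lower, the added ones being Hbegf and Met. No gene of the 10 was called higher by edgeR or DESeq2, against 17.3% and 20.1% of all genes. These tools called 3 and 4 of the 10 lower, against 16.4% and 19% of all genes. The median log2 fold change of the 10 was -0.08, beside -0.02 over all genes tested. In 4 of the 10 the groups did not overlap, each time with every Prox1 OE library below both Control libraries, while 63.3% of all genes tested had groups that did not overlap, 32.4% with Prox1 OE below. With libraries scaled to their total read counts (total-count scaling), which moved the median of all genes to -0.44, 5 of the 10 were called lower and 39.9% of all genes. Without either Control library alone, none of the 10 was called lower, and at an unadjusted p under 0.05, 3 were lower without Control replicate 1, and 2 were lower and 1 higher without Control replicate 2. In bulk tumours, fewer cells of a type and less RNA per cell cannot be told apart.

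**Figure D1:**
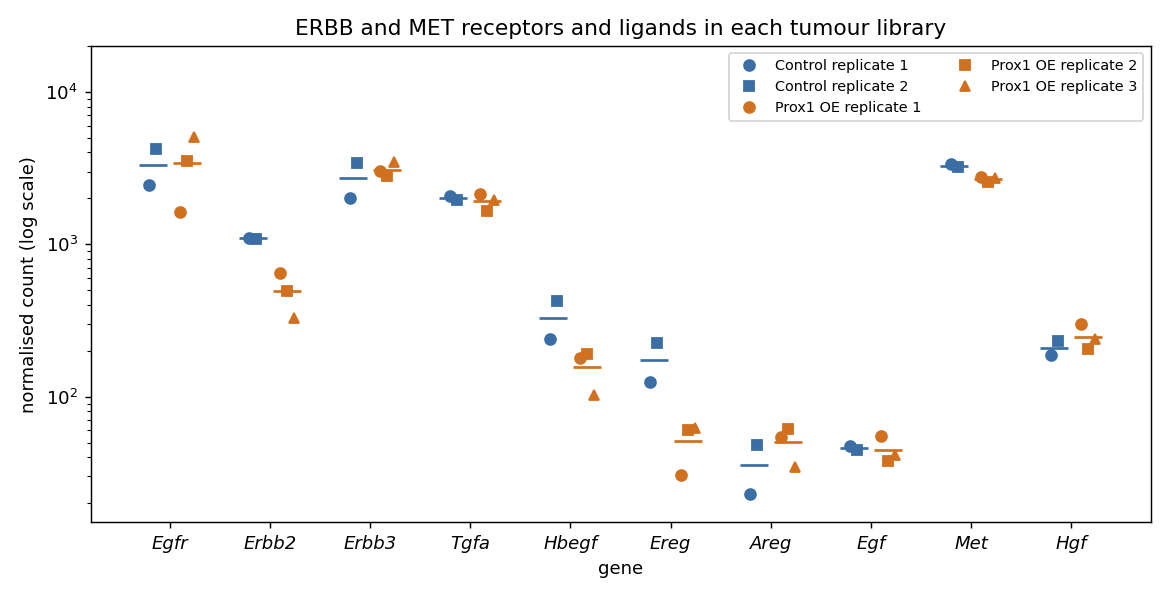
Normalised counts (log axis) of the 10 receptor and ligand genes in the 2 Control and 3 Prox1 OE libraries, with each group's mean as a line. Erbb2, Hbegf, Ereg and Met are lower in every Prox1 OE library than in both Control libraries, and Egfr is spread from 1621 to 5061 within Prox1 OE.

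Erbb2, the ligand-less ERBB receptor (ENSMUSG00000062312, mm10 chr11:98412470-98437716), showed the firmest fall among the receptors. It counted 1104 and 1080 in the Control libraries and 649, 496 and 330 in the Prox1 OE libraries. The Control libraries lay close together and the groups did not overlap. The mean was 1092 ± 17.2 (SD, n = 2) in Control and 492 ± 160 (SD, n = 3) in Prox1 OE, 2.22-fold lower. The log2 fold change was -1.20 (SE 0.26, 95% interval -1.82 to -0.58, limma adjusted p = 0.014), and 12.5% of all genes tested had a larger change in size. It stayed called under 14 of 16 alternatives. The exceptions were the fits without Control replicate 1 (limma adjusted p = 0.10) and without Control replicate 2 (0.077), in which the fold change hardly moved. The end of Erbb2 overlaps Mien1 on the other strand, and the 2 genes share 9 of Erbb2's 5210 exon bases. Mien1, a small membrane-anchored protein gene named here because of that overlap, counted 3163 and 3195 in Control and 4390, 6148 and 6858 in Prox1 OE and rose (log2 fold change 0.84, limma adjusted p = 0.015). The library kit keeps strand, but how strand was used in counting is not given in the sources used here.

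Erbb3, the receptor that pairs with ERBB2 (ENSMUSG00000018166, chr10:128567523-128589652), did not follow it. It counted 2006 and 3428 in Control and 3004, 2817 and 3450 in Prox1 OE, and the groups overlapped. The fitted log2 difference was 0.23 (SE 0.22, 95% interval -0.29 to 0.75, limma adjusted p = 0.45) and was -0.20 under total-count scaling.

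Egfr, the receptor shared by the EGF-like ligands (ENSMUSG00000020122, chr11:16752203-16918158), was the most uneven of the 10 within Prox1 OE. Its counts were 2433 and 4219 in Control and 1621, 3500 and 5061 in Prox1 OE, so that Prox1 OE held both the lowest and the highest library. The log2 fold change was -0.07 (SE 0.45, 95% interval -1.12 to 0.99, limma adjusted p = 0.93). The highest Prox1 OE library exceeded the lowest 3.12-fold, while the median gene tested had a ratio of 1.34. A higher ratio was found in 4.31% of all genes tested and in 0.527% of the 7783 genes with a mean of at least 1000 normalised counts. The lowest Egfr count was that of Prox1 OE replicate 1, the library with the highest Prox1 count. Without that library the log2 fold change was 0.39 (limma adjusted p = 0.32). Erbb2 went the other way, with its highest Prox1 OE count (649) in that library, and no link to the Prox1 level was tested.

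Met, the HGF receptor (ENSMUSG00000009376, chr6:17463800-17573980), was the most even of the 10 within Prox1 OE. It counted 3342 and 3220 in Control and 2750, 2562 and 2731 in Prox1 OE, without overlap. Its mean was 3281 ± 86.2 (SD, n = 2) against 2681 ± 104 (SD, n = 3), 1.22-fold lower. The log2 fold change of -0.29 (SE 0.11, 95% interval -0.54 to -0.04) did not pass the test (limma adjusted p = 0.070). It was called under 3 of 16 alternatives. These were DESeq2 (adjusted p = 0.041), total-count scaling (limma adjusted p = 0.0036) and leaving out Prox1 OE replicate 1 (limma adjusted p = 0.039). Total-count scaling moved Met to -0.72 and the median of all genes to -0.44. Met was not called without Prox1 OE replicate 2 (limma adjusted p = 0.14) or 3 (0.11). Its log2 fold change was -0.26 without Control replicate 1 and -0.32 without Control replicate 2.

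Hgf (ENSMUSG00000028864, chr5:16553495-16620152) counted 187 and 232 in Control and 302, 204 and 238 in Prox1 OE, and the groups overlapped. The fitted log2 difference was 0.23 (SE 0.23, limma adjusted p = 0.47), and was -0.20 under total-count scaling. Neither side of the MET ligand and receptor pair passed the test.

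The EGFR ligands are made as membrane proteins whose EGF-like domain, held by 6 cysteines, is the part that binds the receptor. Ereg, Areg, Epgn and Btc lie in the same region of chromosome 5, with Ereg (chr5:91074622-91093646) 46.0 kb before Areg (chr5:91139599-91148432) on the same strand. Btc lies 209 kb beyond Areg, on the other strand. The spliced coding stretches from the first to the last of the 6 cysteine codons are shown for the ligands whose responses are compared below, to show how these related ligands compare in sequence. They were read from GENCODE transcripts on GRCm38 (mm10), 5′ to 3′, with the cysteine codons in capitals. Genomic spans, with the intron inside them, are chr5:91088496-91089111 for Ereg (exons 3 and 4 of 5), chr5:91143614-91144364 for Areg (exons 3 and 4 of 6), both on the plus strand, and chr6:86263200-86269960 for Tgfa (exons 3 and 4 of 6, plus strand).
Ereg: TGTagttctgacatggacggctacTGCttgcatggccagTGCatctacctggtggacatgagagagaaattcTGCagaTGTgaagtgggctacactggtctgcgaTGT
Areg: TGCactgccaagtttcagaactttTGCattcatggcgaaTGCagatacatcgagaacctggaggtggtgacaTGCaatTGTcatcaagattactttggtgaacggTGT
Tgfa: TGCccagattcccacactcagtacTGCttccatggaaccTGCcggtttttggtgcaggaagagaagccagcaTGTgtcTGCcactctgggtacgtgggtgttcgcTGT
Each stretch is 108 bases long. Ereg and Areg were the same at 53.7% of positions, Ereg and Tgfa at 45.4%, and Areg and Tgfa at 47.2%, and no pair shared an identical run longer than 8 bases.

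Ereg, which encodes epiregulin (ENSMUSG00000029377), showed the largest fold change of the 10. It counted 125 and 224 in Control and 30.7, 60.2 and 62.5 in Prox1 OE. Every Prox1 OE library was below both Control libraries. Its mean of 174 ± 69.9 (SD, n = 2) in Control compared with 51.1 ± 17.7 (SD, n = 3) in Prox1 OE, 3.41-fold lower. The log2 fold change was -1.76 (SE 0.41, 95% interval -2.71 to -0.81, limma adjusted p = 0.016), and 4.99% of all genes tested had a larger change. The values rest on 30 to 264 reads. It was called under 14 of 16 alternatives and was not called without Control replicate 1 (log2 fold change -2.18, limma adjusted p = 0.053) or without Control replicate 2 (-1.34, 0.13).

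Its neighbour Areg, which encodes amphiregulin (ENSMUSG00000029378), did not pass the test. It counted 23.0 and 48.3 in Control and 54.2, 61.4 and 34.7 in Prox1 OE, with overlap, and the fitted log2 difference was 0.53 (SE 0.43, 95% interval -0.47 to 1.53, limma adjusted p = 0.37). The difference was 0.012 without Control replicate 1, 1.05 without Control replicate 2 and 0.11 under total-count scaling. Areg rested on 28 to 57 reads a library. The difference between the changes of Ereg and Areg was not tested.

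Hbegf, which encodes heparin-binding EGF (ENSMUSG00000024486), counted 239 and 422 in Control and 180, 190 and 103 in Prox1 OE. The groups did not overlap, and Prox1 OE replicate 3 was the lowest. The mean was 331 ± 129 (SD, n = 2) in Control and 158 ± 47.6 (SD, n = 3) in Prox1 OE, 2.10-fold lower. Its log2 fold change of -1.06 (SE 0.35, 95% interval -1.87 to -0.24) lay at the threshold (limma adjusted p = 0.052). It was called by edgeR (adjusted p = 0.047) and DESeq2 (adjusted p = 0.012). It was also called under total-count scaling (limma adjusted p = 0.011) and with a minimum mean of 50, and it was not called without any single library (limma adjusted p from 0.058 to 0.34).

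Tgfa, which encodes transforming growth factor alpha (ENSMUSG00000029999, chr6:86195223-86275719), was the most abundant ligand. It counted 2084 and 1964 in Control and 2130, 1661 and 1962 in Prox1 OE, with overlap (log2 fold change -0.08, 95% interval -0.40 to 0.24, limma adjusted p = 0.66). Under total-count scaling Tgfa was called lower (-0.52, limma adjusted p = 0.026). Egf (ENSMUSG00000028017, chr3:129677565-129755316), the founding member of the ligand family, counted 47.7 and 44.9 in Control and 55.2, 37.8 and 41.7 in Prox1 OE, also with overlap (log2 fold change -0.06, 95% interval -0.78 to 0.66, limma adjusted p = 0.89).

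**Figure D2:**
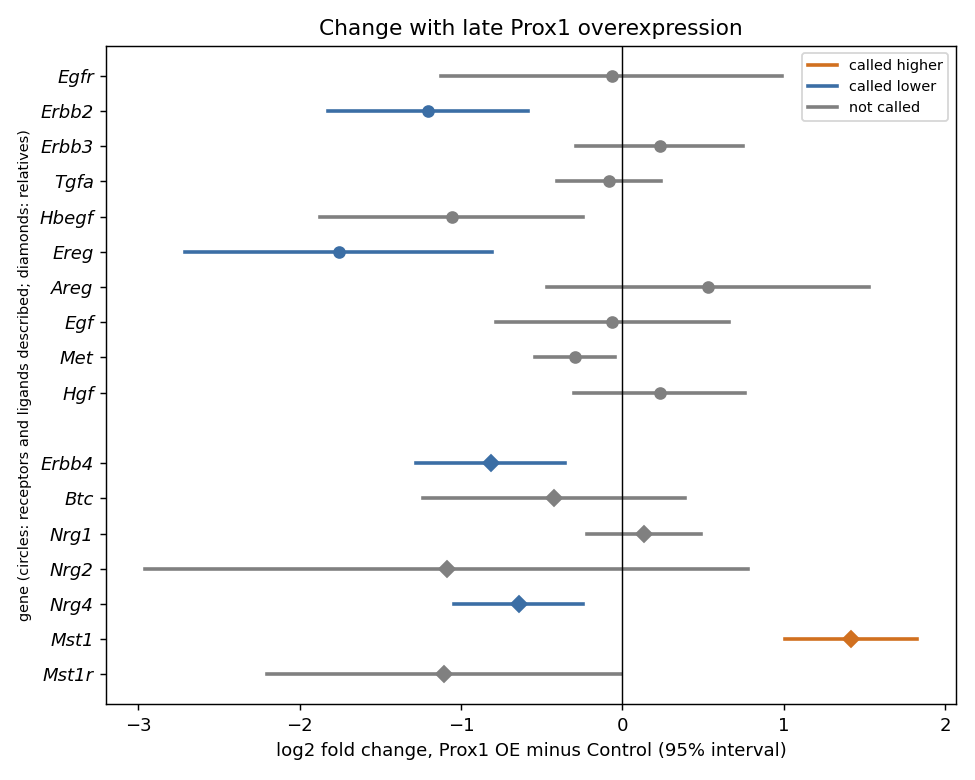
Log2 fold change (Prox1 OE minus Control) with its 95% interval from limma for the 10 receptor and ligand genes (circles) and for the 7 tested of 9 related genes (diamonds), coloured by the call at an adjusted p of 0.05. Ereg at -1.76 and Erbb2 at -1.20 are called lower, and the intervals of Egfr, Erbb3, Tgfa, Areg, Egf and Hgf cross 0.

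To compare genes with each other, normalised counts were divided by the length of the gene's annotated exons in kilobases. In Control, the order of mean levels was Erbb3 (452 normalised counts per kb), Met (427), Tgfa (312), Egfr (294), Erbb2 (210), Hbegf (68.4), Ereg (42.2), Areg (29.3), Hgf (29.2) and Egf (4.11). The ranges of Erbb3 and Met, of Tgfa and Egfr, and of each neighbouring pair from Hbegf to Hgf overlapped. In Prox1 OE, the order was Erbb3 (514), Met (349), Egfr (300), Tgfa (295), Erbb2 (94.4), Areg (41.2), Hgf (34.5), Hbegf (32.6), Ereg (12.4) and Egf (3.98), and the neighbours Met and Egfr, Egfr and Tgfa, Areg and Hgf, and Hgf and Hbegf overlapped. Erbb2 was the fifth in both groups, while Ereg was the seventh in Control and the ninth in Prox1 OE. With the longest transcript as the length, 5 of the 10 genes kept their place in the Control order, Ereg was the eighth there, and its range in Prox1 OE (7.43 to 15.1 normalised counts per kb) overlapped that of Egf (7.93 to 11.6).

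As a share of the summed ERBB receptor level per kb (Egfr, Erbb2, Erbb3 and Erbb4), Erbb2 made up 25.5% and 17.1% in the Control libraries and 15.3%, 10.5% and 5.68% in the Prox1 OE libraries. Erbb3 made up 40.2% and 47.0% in Control and 61.4%, 51.6% and 51.4% in Prox1 OE. The groups did not overlap for either share, although the Erbb3 level itself did overlap. The share of Egfr ran from 25.9% to 30.7% in Control and from 17.6% to 40.1% in Prox1 OE, and so overlapped.

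Among the EGFR ligands (the 5 above with Btc and Epgn), Tgfa made up 67.7% and 50.3% of the summed level per kb in Control and 67.1%, 62.2% and 70.5% in Prox1 OE. Ereg made up 6.38% and 9.01% in Control and 1.52%, 3.54% and 3.53% in Prox1 OE. Areg held less than Ereg in both Control libraries (3.99% and 6.61%) and more in every Prox1 OE library (9.12%, 12.3% and 6.66%). The share of Hbegf also did not overlap between groups, at 10.4% and 14.5% in Control against 7.61%, 9.55% and 4.97% in Prox1 OE.

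**Figure D3:**
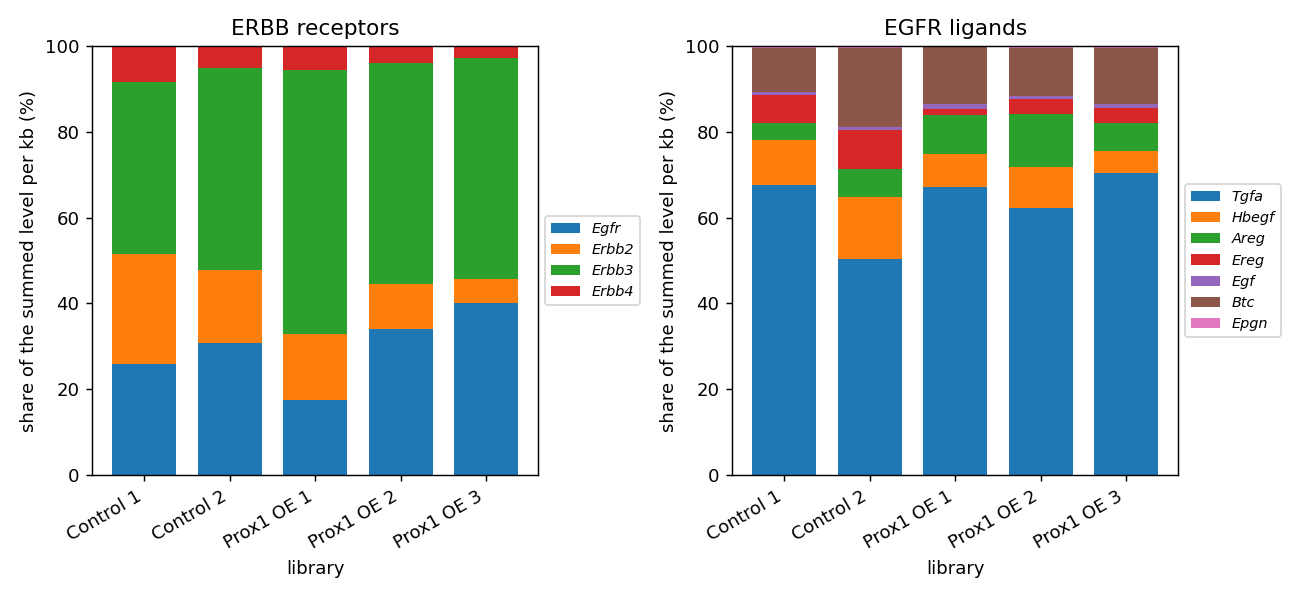
Share of the summed level per kb (%) held by each ERBB receptor (left) and each EGFR ligand (right) in each of the 5 libraries. Erbb2 takes 17.1% to 25.5% of the receptor level in Control and 5.68% to 15.3% in Prox1 OE, and Tgfa takes over 50% of the ligand level in each library.

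Of the 9 close relatives of these genes, 7 were tested. Among these, 2 fell, Mst1 rose and 4 were not called, beside 16.2% of all genes called lower and 17.1% higher. Erbb4, the neuregulin receptor and remaining ERBB family member, counted 858 and 764 in Control and 575, 439 and 383 in Prox1 OE and fell (log2 fold change -0.82, SE 0.20, limma adjusted p = 0.018). Nrg4, a neuregulin that binds ERBB4, counted 891 and 1107 in Control and 592, 745 and 584 in Prox1 OE and fell (-0.64, SE 0.17, limma adjusted p = 0.026). Neither gene's groups overlapped, and neither gene was called when either Control library was left out (limma adjusted p from 0.084 to 0.21). Erbb4 was also not called without Prox1 OE replicate 2 (limma adjusted p = 0.063). Nrg4 was also not called without Prox1 OE replicate 3 (0.066) or without limma's mean-variance trend (0.057). Mst1, the hepatocyte-made relative of HGF known as macrophage-stimulating protein, counted 2329 and 3049 in Control and 6133, 7021 and 8385 in Prox1 OE. It rose by a log2 fold change of 1.42 (SE 0.17, limma adjusted p = 0.0027) and was called without any single library (limma adjusted p from 0.0037 to 0.034). Its receptor Mst1r (RON) was low, with 23.8 and 27.1 in Control and 12.3, 7.08 and 16.2 in Prox1 OE, and did not pass the test (-1.11, limma adjusted p = 0.11). Btc (-0.42, limma adjusted p = 0.38), Nrg1 (0.13, 0.52; -0.30 under total-count scaling) and Nrg2 (-1.09, 0.33) were not called either. Nrg2 had 101 and 13 reads in the Control libraries, and its log2 fold change was 0.31 without Control replicate 1 (limma adjusted p = 0.79) and -2.49 without Control replicate 2 (0.040). Epgn (2.04 to 4.63 normalised counts, from 2 to 5 reads) was too low to test, and Nrg3 had 0 reads in each library, which allows up to 3.54 normalised counts.

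Of 11 genes for the release or activation of these ligands, including inhibitors of that step, 5 fell and 3 rose, beside 16.2% of all genes called lower and 17.1% higher. Under total-count scaling 8 were called lower, beside 39.9% of all genes, and 3 higher. Without Control replicate 1 none was called lower (4 at an unadjusted p under 0.05) and 1 higher, and without Control replicate 2, 1 was called lower and 3 higher (limma). The activators of pro-HGF differed among themselves. Hgfac, the plasma protease that activates pro-HGF, counted 1272 and 1808 in Control and 4573, 4756 and 7368 in Prox1 OE and rose (log2 fold change 1.84, SE 0.24, limma adjusted p = 0.0029). Plg, the plasmin precursor, rose by 1.53 (limma adjusted p = 0.0085), and Hpn, the membrane protease hepsin, by 0.96 (0.0031). Plau, the urokinase that activates plasminogen, fell (-1.10, limma adjusted p = 0.0077), and so did the protease inhibitor Spint1, which restrains pro-HGF activators (-1.02, limma adjusted p = 0.0090). Without Control replicate 1, Plg (limma adjusted p = 0.093), Hpn (0.052), Plau (0.092) and Spint1 (0.084) were not called, and Spint1 was not called without Control replicate 2 either (0.052). Hgfac, Plg and Hpn are made by hepatocytes, whose markers were higher in Prox1 OE, and the part of hepatocyte content in these rises was not tested.

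Downstream, 4 of 10 adaptor genes fell and none rose by limma, edgeR or DESeq2, nor was any higher by limma at an unadjusted p under 0.05. Over all genes tested 16.2% were called lower, and 39.9% under total-count scaling, which called 9 of the 10 adaptors lower. Without either Control library none of the adaptors was called lower, and 3 were lower at an unadjusted p under 0.05 (limma). Gab1, the docking protein of MET, counted 1924 and 1990 in Control and 1267, 1002 and 874 in Prox1 OE (log2 fold change -0.92, limma adjusted p = 0.0074). Gab2 (-0.86, limma adjusted p = 0.014), the RAS exchange factor Sos2 (-0.82, 0.014) and the adaptor Crk (-0.39, 0.026) fell too. The adaptors called lower numbered 3 without the mean-variance trend and 2 without Prox1 OE replicate 2 (limma). In the RAS, RAF, MEK and ERK cascade, 2 of 9 genes rose and 1 fell, the same 33.3% called as over all genes tested. None was called higher and 5 lower under total-count scaling. Without either Control library no gene of the cascade was called by limma, while 1 (without Control replicate 1) and 2 (without Control replicate 2) were higher at an unadjusted p under 0.05. The kinase Map2k2 rose by 0.61 (limma adjusted p = 0.014) and Araf by 0.46 (0.021), and Map2k1 fell (-0.38, 0.033). Neither Araf nor Map2k1 was called without Prox1 OE replicate 2 (limma adjusted p = 0.056 and 0.081) or replicate 3 (0.052 and 0.073). Nor was either called without the mean-variance trend (0.058 and 0.076). Map2k1 was also not called without a filter on low values (0.055) or with same-numbered libraries paired, which drops Prox1 OE replicate 3.

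Of 18 genes listed as inhibitors of the pathways, 8 fell and 1 rose, beside 16.2% of all genes called lower and 17.1% higher. Under total-count scaling 15 were called lower, beside 39.9% of all genes, and none higher (1 at an unadjusted p under 0.05). Without either Control library none was called in either direction by limma, while 10 (without Control replicate 1) and 6 (without Control replicate 2) were lower and 1 higher at an unadjusted p under 0.05. Dusp4, an ERK phosphatase that ERK itself induces, counted 195 and 161 in Control and 79.8, 35.4 and 34.7 in Prox1 OE and fell (log2 fold change -1.92, limma adjusted p = 0.011). Spry2, a feedback inhibitor of receptor tyrosine kinases, fell by 0.88 on the log2 scale (limma adjusted p = 0.032), Cbl, which marks receptors for degradation, by 0.66 (0.019) and Socs4 by 0.65 (0.014). Lrig3 counted 119 and 132 in Control and 279, 221 and 262 in Prox1 OE and rose (1.00, limma adjusted p = 0.0094). It was listed by its family, and its own action on these receptors was not tested.

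Among 14 genes that ERK signalling is known to induce, 6 fell, beside 16.2% of all genes called lower. Under total-count scaling 11 were called lower, beside 39.9% of all genes, and without either Control library 1 was. Ier3, an early response gene, counted 1573 and 2164 in Control and 547, 699 and 429 in Prox1 OE (log2 fold change -1.75, limma adjusted p = 0.0030). The ETS factor Etv4 (-1.15, limma adjusted p = 0.026), Spry2, Myc (-0.74, 0.0066), the cyclin gene Ccnd1 (-0.70, 0.016) and the early response gene Ier2 (-0.49, 0.040) also fell. The other 8 did not pass the test, with log2 fold changes from -1.70 for Fosl1 (limma adjusted p = 0.055, edgeR 0.039, DESeq2 0.014) to 0.18 for Dusp6 (limma adjusted p = 0.35). No gene of this list was called higher by limma, edgeR or DESeq2, or was higher by limma at an unadjusted p under 0.05.

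Over all 69 pathway genes, each counted once, 67 were tested, of which 25 fell, 7 rose and 35 did not pass the test, a call for 47.8% beside the 33.3% of all genes. Their median log2 fold change was -0.37, beside -0.02 for all genes tested. Without Control replicate 1, 1 pathway gene was called lower and 2 higher, while the calls over all genes went to 477 lower and 681 higher from 2769 and 2933 (limma). Without Control replicate 2, 3 pathway genes were called lower and 4 higher, and 834 and 1436 of all genes. Under total-count scaling 50 were called lower and 4 higher, and 39.9% of all genes were called lower there.

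**Figure D4:**
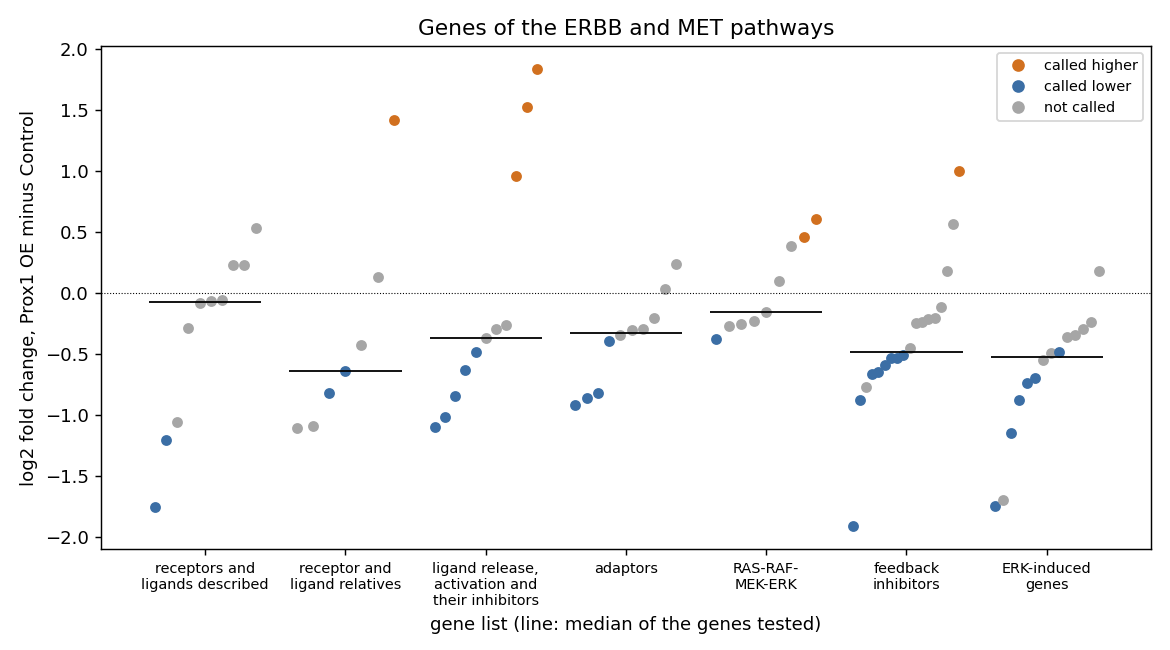
Log2 fold change (Prox1 OE minus Control) of each tested gene in the described set and in 6 pathway lists, coloured by the limma call, with the median of each list as a line. Dusp4 lies lowest at -1.92 and Hgfac highest at 1.84, and the medians run from -0.64 to -0.08.

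Markers of several cell types differed between the groups, beside 17.1% of all genes called higher and 16.2% lower. Of 10 hepatocyte markers, 9 rose and none fell, with Ttr, a plasma carrier protein, at 1.79 (limma adjusted p = 0.0052). Without Control replicate 1 none of the 10 was called (6 were higher at an unadjusted p under 0.05), and without Prox1 OE replicate 2, 5 were called higher (limma). Of 9 cholangiocyte markers tested, 8 fell and none rose, with the ductal keratin Krt19 at -2.41 (limma adjusted p = 0.0014), and 4 or 5 were called lower without Control replicate 1 or 2. Spp1, the most abundant cholangiocyte marker, counted 712010 to 784749 in Control and 509317 to 688825 in Prox1 OE and did not pass the test (-0.34, limma adjusted p = 0.51). Of 10 stellate cell and fibroblast markers, 4 fell (Col1a1, Col1a2, Col3a1 and Acta2, with Col1a1 at -1.23 and limma adjusted p = 0.0033) and 2 rose (the stellate cell genes Lrat at 1.09, limma adjusted p = 0.0047, and Reln at 0.55, 0.025), and the summed level of the list was 125704 to 130497 in Control and 71328 to 83477 in Prox1 OE. Under total-count scaling 7 of the 10 were called lower and 1 higher, and without Control replicate 1, 2 lower and 1 higher (limma). Of 10 markers each, 3 endothelial ones rose and 1 fell (2 and 6 under total-count scaling, 1 and 0 without Control replicate 1, where 1 was lower at an unadjusted p under 0.05), and 2 myeloid ones rose and 1 fell, while 5 of 9 tested lymphoid markers rose. Of the lymphoid markers none was called without either Control library (5 and 4 were higher at an unadjusted p under 0.05) and 1 was called without Prox1 OE replicate 2 (limma). Of the myeloid markers 5 were called higher by DESeq2 and none by limma without the trend or without Control replicate 1 (2 and 4 at an unadjusted p under 0.05). The summed levels were 10335 to 12625 in Control and 11667 to 16307 in Prox1 OE for endothelium, 19283 to 23127 and 27976 to 45085 for myeloid cells, and 463 to 546 and 1073 to 1616 for lymphoid cells. No marker of these 6 lists was at 0 in any library. The part of cell content in the falls of Erbb2 and Ereg was not tested.

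The genes whose pattern over the 5 libraries lay nearest were found for the 8 described genes with a mean of at least 100 normalised counts, thus not for Areg and Egf, by the root mean square difference of centred log2 values, among 12969 genes above the same minimum. Erbb2 was nearest to Glis2 (0.03 on the log2 scale) and 2010300C02Rik (0.03). Hbegf was nearest to the ERK-induced Etv4 (0.12) and to the bile duct secretin receptor gene Sctr (0.13), whose counts were 278 and 403, and 176 and 282, in Control and 164, 196 and 105, and 130, 117 and 82.2, in Prox1 OE. Ereg was nearest to Medag (0.21) and Inhbb (0.22), and Egfr to Adcyap1r1 (0.20) and Slfn4 (0.21). Met was nearest to Mcmbp and Snx16 (both 0.01), Tgfa to Rnf214 and Dse (both 0.02), Erbb3 to Prnp (0.10) and Gcnt2 (0.11), and Hgf to P2ry2 (0.04) and Epb41 (0.06). Over 5 libraries such likeness is a description of these libraries.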

How the data were processed

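The deposited table holds gene counts that the authors divided by DESeq2 size factors, a signal that is proportional to reads within a library. Reads were aligned to mm10 with STAR per the labels, and the counting tool and its strand setting are not given in the sources used here. Libraries were made with a dUTP protocol and sequenced as paired reads of 100 bases. The 5 libraries were grouped by their titles. The smallest step between values gave whole reads for 100% of values (within 0.001 reads), with totals of 48740863 to 56629477, and columns of no sample were 0.

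Values were tested as log2(value + 1) with limma 3.58.1 (mean-variance trend, R 4.3.3) over the 17105 genes with a mean of at least 10, with Benjamini-Hochberg adjustment at 0.05. Fold changes on this scale understate those of low genes. Recovered reads were tested with edgeR 4.0.16 (quasi-likelihood, 2952 genes called higher and 2800 lower) and DESeq2 1.42.0 (3432 and 3244), beside 2933 and 2769 by limma. The limma fit was tested on simulated data. Other settings were TMM, upper-quartile and total-count scaling, pseudocounts of 0.1 and 10, no filter or a mean of at least 50, no trend, a replicate block, leaving out each library, and transcript length.

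The genes described and all lists were chosen with earlier results of these data known. The text names the 10 genes, Prox1, all 9 relatives, up to 5 called genes of each other pathway list by size of change, the 2 nearest genes by pattern, and up to 4 markers a list by level. Mien1, Errfi1, Ier2, Fosl1, Dusp6, Lrat and Reln were named after their values were seen. Symbols, exon lengths and positions came from GENCODE M21. Of the pathway lists, 2 genes are not reported here and were left out of every list count.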

Additional observations from a re-analysis of the deposited data

How the results depend on the processing

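The 16 alternatives gave 158 values for the 10 genes, of which 136 kept both direction and side of the threshold, 4 lost the call, 9 gained it and 9 changed sign. The same was counted for 29 related pathway genes: the tested relatives, the largest called genes of the other lists and Errfi1. Of their 462 values, 394 kept both, 62 lost the call, 3 gained it and 3 changed sign. Most of these genes were chosen for being called, which favours losses over gains. The genes of the 10 called lower numbered 5 under total-count scaling and 4 by DESeq2, and from 0 to 3 when a library was left out, with 0 without either Control library. Genes called over the whole table were 1475 higher and 6833 lower under total-count scaling. Leaving out a library gave 681 to 3738 higher and 477 to 3753 lower. Pathway genes called were 4 higher and 50 lower under total-count scaling and 16 lower without the trend. They ran from 2 to 9 higher and from 1 to 28 lower when a library was left out. The log2 fold change of Prox1 was 2.35 by edgeR (adjusted p = 0.048) and 1.12 to 2.39 with a library left out. With the longest transcript as the length, 5 of the 10 genes kept their Control rank. The cause of these differences was not tested, except that fewer libraries were fitted in the leave-out values.

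Sign changes were found only for genes that were not called, among those with alternatives computed. Egfr was at 0.029 by edgeR and 0.029 by DESeq2. Under total-count scaling Erbb3 was at -0.20, Hgf at -0.20 and Nrg1 at -0.30. With a library left out, Egfr ran from -0.46 to 0.39, Erbb3 from -0.15 to 0.62, Tgfa from -0.16 to 0.015, Egf from -0.22 to 0.051, Btc from -1.02 to 0.17 and Nrg2 from -2.49 to 0.31.

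Replicate numbers are shared by the groups, but no label ties them to an animal or a day, and only 2 pairs exist. The deviations of same-numbered libraries correlated at 0.14 and 0.02 across genes, and those of differently numbered libraries at -0.14 to 0.14. With 2 Control libraries the deviations mirror each other, so these values cannot decide on a pairing. With the replicate block, which drops Prox1 OE replicate 3, the pairing gave 0 higher and 3 lower of the 10 (Hbegf gained, limma adjusted p = 0.032), 2676 higher and 2570 lower of all genes, 7 higher and 23 lower pathway genes, and a Prox1 log2 fold change of 2.39 (limma adjusted p = 0.0013).

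Areg and Egf rest on 28 to 58 reads a library, and Control has 2 libraries.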

Other observations

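Errfi1, which encodes the ERBB inhibitor MIG6 and is induced by EGFR signalling, was named after its values were seen. It counted 15246 and 20049 in Control and 13921, 28494 and 43748 in Prox1 OE. The groups overlapped, and its log2 fold change of 0.57 did not pass the test (SE 0.43, limma adjusted p = 0.34). Its lowest and highest libraries within Prox1 OE were those of Egfr, with Prox1 OE replicate 1 lowest and replicate 3 highest. The hepatocyte markers Apoa1 and Ttr had the same lowest and highest libraries, while Alb and Apob did not, so the order is not particular to Errfi1 and Egfr. Over 3 libraries this is a description only, and no test was made.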
